A study of Mus musculus with 9 samples.

Results

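The genes of autophagy and of the lysosomal proton pump were followed across 9 RNA-seq libraries of C2C12 myotubes, the fused muscle fibres that form from a mouse myoblast line in culture. Rows of the expression table were taken by symbol: those starting with Atg and a digit, Map1lc3, Gabarap, Ulk and a digit, Wipi and a digit, Atp6v or Atp6ap, plus Becn1, Pik3c3, Sqstm1, Bnip3, Bnip3l, Tfeb, Tfe3, Lamp1 and Lamp2. This gave 58 of the 10716 listed genes. There were 3 groups of 3 libraries, all from myotubes kept for 24 h: 1 with vehicle, 1 with 50 µM dexamethasone and 1 with the same dose of dexamethasone plus 10 µM THSG. Dexamethasone is a synthetic glucocorticoid that is widely used to make cultured myotubes waste. THSG is given only by its abbreviation in the labels, and no group received THSG without dexamethasone, so its values are always read on a background of the glucocorticoid. The labels do not say whether the 3 libraries of a group came from separate cultures, so the p-values measure the spread between these libraries, which may be technical. All cells are of 1 line, and in such bulk samples fewer cells of a type and less RNA per cell cannot be told apart.

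In autophagy a membrane sac, the phagophore, grows around cytoplasm, closes as the autophagosome and fuses with the lysosome. A kinase complex with ULK1 or ULK2 starts the process, a lipid kinase complex around VPS34 (Pik3c3) marks the membrane, and a ubiquitin-like conjugation system attaches ATG8 proteins (the LC3 and GABARAP families) to it. The lysosome digests the cargo at low pH, which the vacuolar proton pump (V-ATPase) keeps up: its V1 part splits ATP in the cytosol and turns the V0 ring that carries protons through the membrane. In muscle, autophagy is one of the main routes of protein breakdown, beside the proteasome.

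The values are FPKM (fragments per kilobase of transcript, scaled to the mapped fragments of the library), a unit inferred from the deposited numbers. Library sums ranged from 400218 to 422379 FPKM, no counts were given, and the sequencing depth is therefore unknown. Every listed value exceeded 1 FPKM, so a gene near 0 in any library could not appear. Of 67 symbols in the GENCODE M21 mouse annotation that meet the rule, 9 were not among the listed symbols and were not analysed here: Atg4a-ps, Atp6ap1l, Atp6v0a4, Atp6v0c-ps1, Atp6v1b1, Atp6v1e2, Atp6v1fnb, Atp6v1g3 and Ulk4. Fkbp5, a standard glucocorticoid-induced gene, rose from 6.57 ± 0.21 to 97.8 ± 0.38 FPKM (SD, n = 3) with dexamethasone, and the atrophy ubiquitin ligase Fbxo32 from 17.4 ± 0.72 to 74.3 ± 1.6 FPKM. All 10 myotube markers examined were listed, and their summed level was 6320 to 6870 FPKM with vehicle and 6780 to 7310 FPKM with dexamethasone. Of 7 fibroblast markers 5 were listed, with a summed level of 965 to 1030 FPKM with vehicle, 529 to 545 FPKM with dexamethasone and 563 to 569 FPKM with dexamethasone plus THSG. Of 6 markers of dividing myoblasts 5 were listed, with sums of 40.0 to 46.1, 27.6 to 33.9 and 29.4 to 32.1 FPKM in that order. Not every marker followed its sum. In the limma test described below (adjusted p under 0.05), dexamethasone against vehicle gave 6 of the myotube markers higher and 1 lower (Des). Of the fibroblast markers 4 were lower and 1 higher (Pdgfra), and of the myoblast markers 4 were lower and 1 higher (Myf5). Over all listed genes 12.7% were higher and 20.9% lower. These markers moved with the treatment, and their part in the results below was not tested. Among 8 macrophage and osteoclast markers only Atp6v0d2 was listed, at 4.23 to 5.87 FPKM over the 9 libraries. Dexamethasone replicate 3 stood apart from the other libraries of its group on the second principal component, with 14.0% of its summed FPKM from mitochondrial genes against 10.5% to 12% elsewhere. It was the lowest library of its group for 30 of the 58 genes (51.7%), compared with 36.9% of all listed genes. Vehicle replicate 1 also lay away from its group on that component, at 6.31 against -3 and -4.49. It was the lowest of its group for 13 of the 58 genes (22.4%), compared with 31.3% of all listed genes.

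With dexamethasone, 10 of the 58 genes rose and 7 fell, while 41 did not pass the test (limma on log2(FPKM + 0.1), Benjamini-Hochberg adjusted p under 0.05 over all listed genes). Over all listed genes 12.7% rose, 20.9% fell and 33.6% passed in either direction, against 17.2%, 12.1% and 29.3% of the 58. The roles described below hold at most 11 genes each, and their counts are to be read beside these shares. The largest changes were those of Atg12, the ubiquitin-like partner of ATG5, and Atp6v1c2, an isoform of the pump's subunit C. Their levels were 2.30 and 1.99 times those of vehicle, and every other gene that passed differed by at most 0.40 on the log2 scale. The median log2 difference was 0.00 for the 58 genes and -0.05 for all listed genes. Vehicle and dexamethasone libraries did not overlap for 25 of the 58 genes (43.1%), beside 45.9% of all listed genes. The number that fell went from 7 to 4 without vehicle replicate 1, without dexamethasone replicate 2 or without dexamethasone replicate 3, and quantile normalization gave 12 higher and 5 lower.

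**Figure D1:**
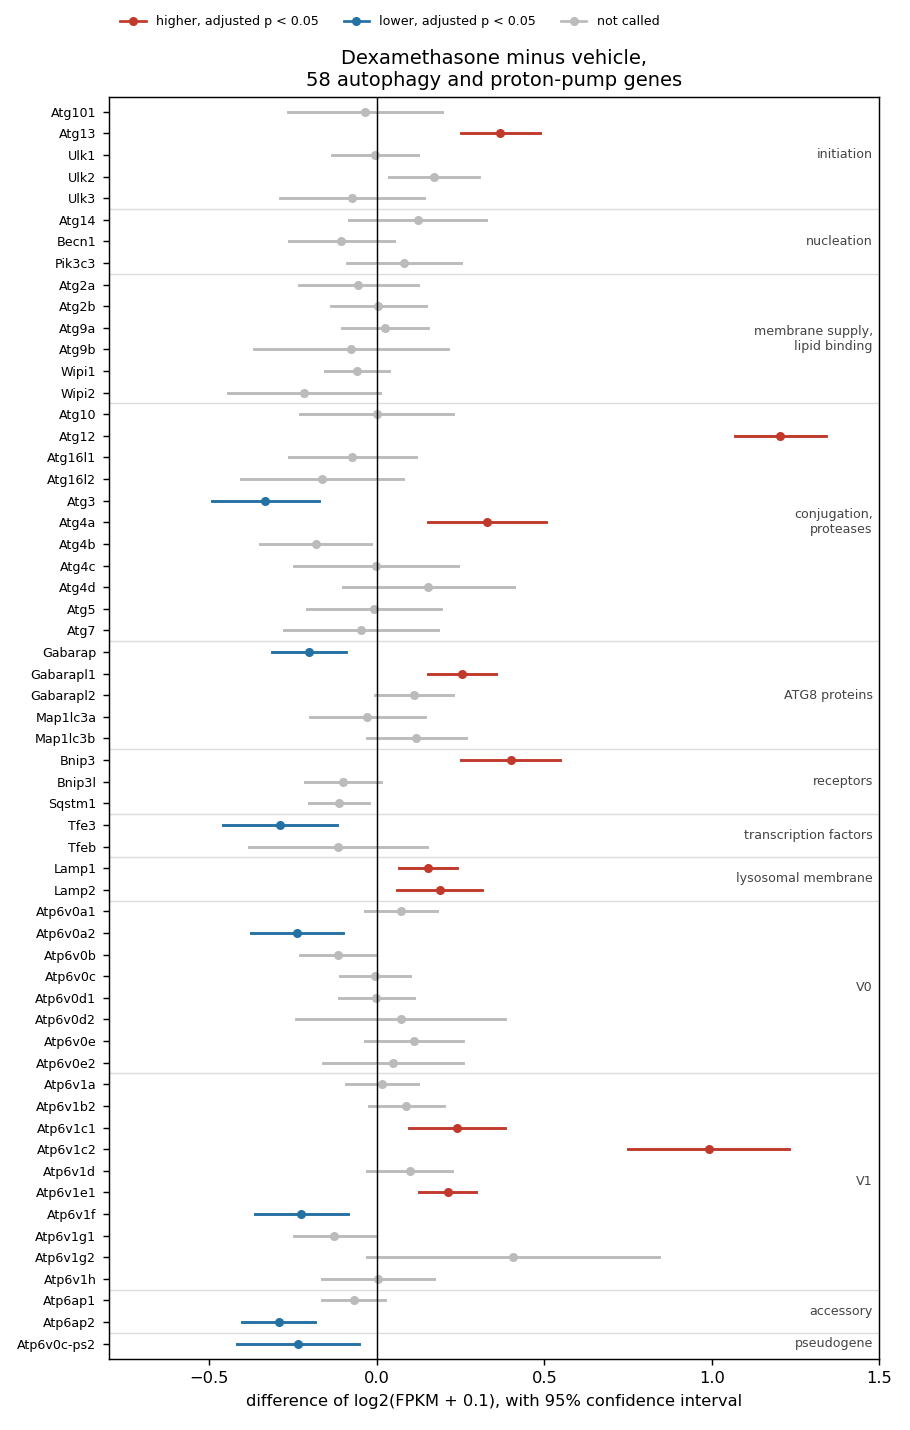
Difference of log2(FPKM + 0.1) between dexamethasone and vehicle (x axis; points with 95% confidence intervals, n = 3 libraries per group) for each of the 58 genes (y axis), grouped by role. Red genes were higher and blue genes lower at an adjusted p under 0.05. Most intervals lie within a narrow band around 0, and only Atg12 and Atp6v1c2 lie near 1.

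Among the 5 genes of the initiation complex, 1 rose and none fell (20% passed, beside 33.6% of all listed genes). Atg13, the adaptor that holds the ULK kinases in their complex, measured 16.8, 16.9 and 18.4 FPKM with vehicle, 22.6, 22.5 and 22.2 FPKM with dexamethasone, and 23.2, 22.4 and 22.3 FPKM with dexamethasone plus THSG. All 6 treated libraries lay above all vehicle libraries and within a span of about 1 FPKM. The difference between dexamethasone and vehicle was 0.37 on the log2 scale (SE 0.054, adjusted p = 0.00025). Ulk1, the kinase itself, gave 21.6, 20.0 and 21.7 FPKM with vehicle and 22.3, 20.1 and 20.6 FPKM with dexamethasone. These libraries overlapped, with a log2 difference of -0.01 and a 95% confidence interval of -0.13 to 0.12. Its paralog Ulk2 measured 13.3, 14.5 and 14.4 FPKM with vehicle and 15.4, 15.7 and 16.3 FPKM with dexamethasone, which did not overlap but missed the threshold (log2 difference 0.17, adjusted p = 0.0506). Under median-ratio scaling Ulk2 passed, at 0.22 and an adjusted p of 0.0219. It also passed under quantile normalization and with genes averaging under 5 FPKM left out, but in no other alternative setting. The difference was 0.13 without vehicle replicate 1 (adjusted p = 0.165) and 0.15 without dexamethasone replicate 3 (adjusted p = 0.134). Neither Atg101, which stabilises ATG13, nor Ulk3 passed, with log2 differences of -0.03 and -0.08.

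The 3 genes of the lipid kinase complex did not pass in either direction. Becn1, the Beclin 1 scaffold of the complex, measured 36.8, 37.6 and 32.5 FPKM with vehicle and 34.2, 35.0 and 30.1 FPKM with dexamethasone. The groups overlapped, and the log2 difference of -0.11 had a 95% confidence interval of -0.26 to 0.05. Pik3c3, the catalytic subunit, differed by 0.08 (-0.09 to 0.25). Atg14, the subunit that directs the complex to autophagosome formation, differed by 0.12 (-0.08 to 0.33). Its 3 dexamethasone libraries, at 5.17, 5.68 and 5.35 FPKM, nevertheless all lay above the vehicle libraries, at 4.94, 5.05 and 4.87 FPKM.

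None of the 6 genes for membrane supply and lipid binding passed. The lipid transfer proteins Atg2a and Atg2b differed by -0.06 and 0.00 on the log2 scale, and the scramblases Atg9a and Atg9b by 0.02 and -0.08. Wipi1, a phosphoinositide-binding protein, was by level the highest of them, at 84.9 ± 1.5 FPKM with vehicle and 81.6 ± 3.6 FPKM with dexamethasone. Wipi2, which recruits the conjugation machinery, had the lowest difference of these 6, at -0.22, and its libraries read 21.2, 20.9 and 19.1 FPKM with vehicle and 19.9, 19.0 and 14.3 FPKM with dexamethasone. The lowest of these values was that of dexamethasone replicate 3, and the groups overlapped (adjusted p = 0.131). Without that library the Wipi2 difference was -0.07 (adjusted p = 0.461), and without dexamethasone replicate 1 it passed at -0.31 (adjusted p = 0.0497).

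In the conjugation system, 2 of 11 genes rose and 1 fell (27.3% passed, beside 33.6% of all listed genes). Atg12 (ENSMUSG00000032905) encodes the ubiquitin-like protein that is joined to ATG5 to form the ligase for the ATG8 proteins. It measured 12.8, 13.1 and 12.7 FPKM with vehicle, 29.6, 30.5 and 29.1 FPKM with dexamethasone and 30.8, 26.1 and 28.3 FPKM with dexamethasone plus THSG. The lowest treated library was far above the highest vehicle library, and the spread within groups was small beside that gap. The log2 difference was 1.20 (SE 0.062, adjusted p = 4.89e-08). The partners of Atg12 did not move with it. Atg5 read 10.9, 11.9 and 11.5 FPKM with vehicle and 11.4, 12.8 and 9.98 FPKM with dexamethasone, so that the Atg12 to Atg5 ratio went from 1.13 ± 0.041 to 2.63 ± 0.27 and stood at 2.64 ± 0.28 with THSG added. Atg16l1, which completes the ligase, differed by -0.07 and its paralog Atg16l2 by -0.16. Neither passed, and nor did the E1-like enzyme Atg7, at -0.05, or Atg10, the E2-like enzyme specific to ATG12, at 0.00.

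Atg3, the E2-like enzyme that passes ATG8 proteins on to lipid, moved the other way. Its level was 22.4, 23.8 and 20.0 FPKM with vehicle, 18.1, 16.4 and 17.9 FPKM with dexamethasone and 18.6, 19.3 and 20.5 FPKM with dexamethasone plus THSG. Dexamethasone libraries were all below the vehicle libraries, while those with THSG lay above the dexamethasone libraries and overlapped with the lowest vehicle library. The log2 difference between dexamethasone and vehicle was -0.33 (SE 0.073, adjusted p = 0.00432).

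The 4 ATG4 proteases trim ATG8 proteins before conjugation and release them from membranes afterwards. Atg4a gave 11, 12 and 10.1 FPKM with vehicle, 13.5, 15.2 and 12.9 FPKM with dexamethasone, and 12.1, 11.9 and 12.2 FPKM with dexamethasone plus THSG. Each dexamethasone library exceeded every library of the other groups, and the rise over vehicle was 0.33 on the log2 scale (SE 0.080, adjusted p = 0.00798). Atg4b measured 13.1, 11.6 and 11.8 FPKM with vehicle, 11.2, 10.9 and 10.0 FPKM with dexamethasone, and 12.3, 13 and 11.6 FPKM with dexamethasone plus THSG. Here the dexamethasone libraries were the lowest, with a difference from vehicle of -0.18 that did not pass (adjusted p = 0.0854). Summed over the 4 proteases the level was 31.8 ± 1.4, 33.5 ± 1.6 and 32.1 ± 0.31 FPKM in the 3 groups. Atg4a made up 34.7% of that sum with vehicle, 41.5% with dexamethasone and 37.6% with dexamethasone plus THSG, and Atg4b 38.2%, 31.9% and 38.3%. Atg4c and Atg4d differed from vehicle by 0.00 and 0.15 without passing.

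**Figure D2:**
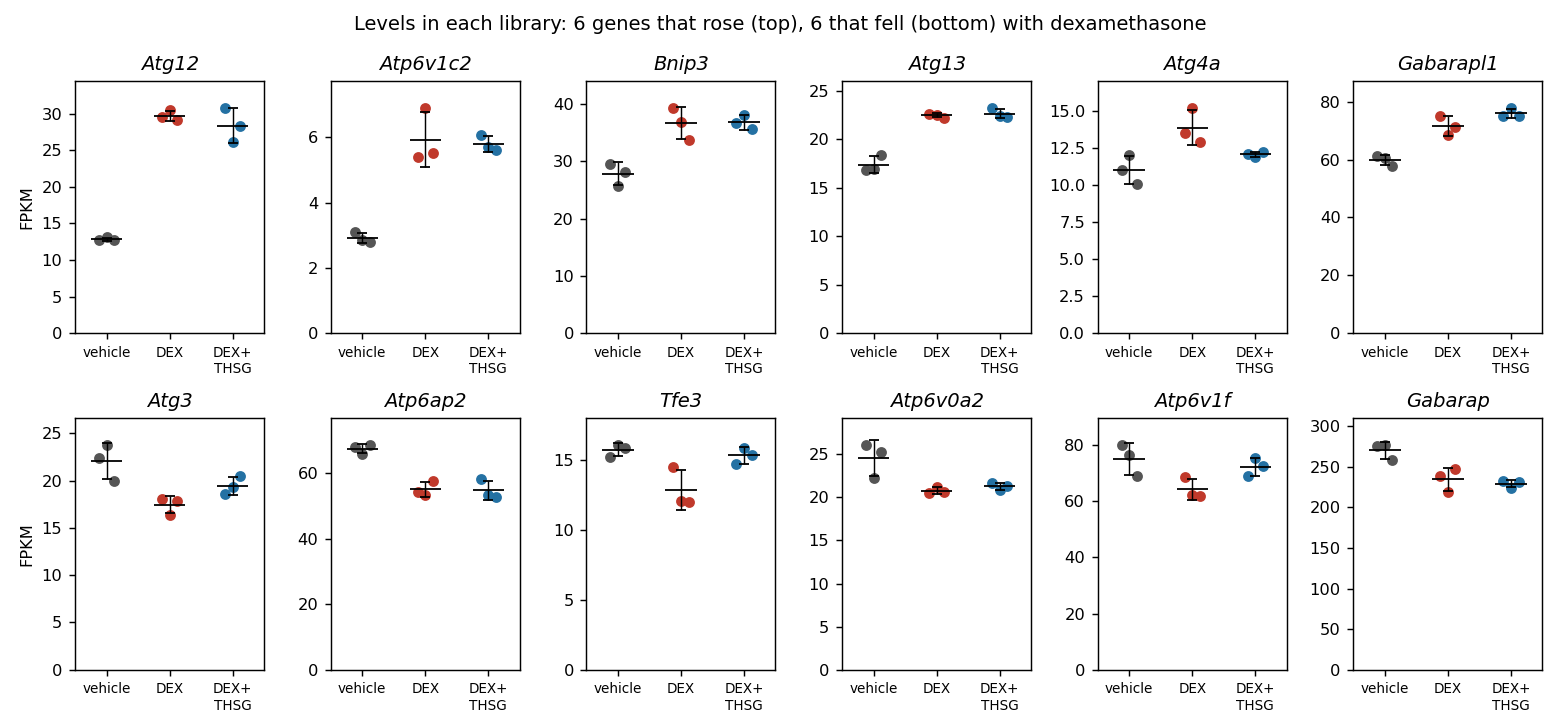
FPKM (y axes, each starting at 0) of 12 genes in each library by group (x axes), 3 libraries per group; DEX is dexamethasone, and lines with bars are means ± SD. The upper row holds genes that rose and the lower row genes that fell with dexamethasone. Atg12 and Atp6v1c2 move most, at 12.8 to 29.7 and 2.92 to 5.93 FPKM on average.

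Of the 5 ATG8 genes, 1 rose and 1 fell (40% passed, beside 33.6% of all listed genes). Gabarapl1 measured 61.3, 60.7 and 58 FPKM with vehicle, 75.1, 68.4 and 71.4 FPKM with dexamethasone and 75.1, 77.9 and 75.3 FPKM with dexamethasone plus THSG. No treated library reached down to the vehicle range, and the difference was 0.25 (SE 0.046, adjusted p = 0.00126). Gabarap, the founding member of this branch, gave 275, 277 and 258 FPKM with vehicle, 238, 219 and 247 FPKM with dexamethasone and 232, 224 and 231 FPKM with dexamethasone plus THSG. Its treated libraries were all lower than its vehicle libraries, by -0.20 on the log2 scale (SE 0.050, adjusted p = 0.00862). Under quantile normalization this fall was -0.13 with an adjusted p of 0.0504. The family's summed level was 591 ± 27 FPKM with vehicle, 577 ± 22 FPKM with dexamethasone and 600 ± 8.1 FPKM with dexamethasone plus THSG. The libraries of the 3 groups overlapped in this sum, which was not tested. Within the sum, Gabarap's share was 45.7%, 40.7% and 38.2%, and that of Gabarapl1 10.2%, 12.4% and 12.7%. The ratio of Gabarapl1 to Gabarap was 0.222 ± 0.0026, 0.306 ± 0.014 and 0.332 ± 0.013.

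The LC3 genes, whose lipid-bound protein is the usual marker of autophagosomes, did not pass between dexamethasone and vehicle in the main fit. Map1lc3b read 107, 98.8 and 95.2 FPKM with vehicle and 121, 103 and 103 FPKM with dexamethasone. The groups overlapped, with a log2 difference of 0.12 (95% confidence interval -0.03 to 0.26, adjusted p = 0.205). Map1lc3a read 137, 116 and 112 FPKM with vehicle and 125, 127 and 106 FPKM with dexamethasone, a difference of -0.03 (adjusted p = 0.818). Once trends with transcript length and GC content had been taken out per library, a step chosen after seeing the data, Map1lc3a was 0.16 higher with dexamethasone (adjusted p = 0.0131). Gabarapl2 (GATE-16) was at 39.2 ± 2.1 and 42.3 ± 0.59 FPKM, a difference of 0.11 that passed under median-ratio scaling, at 0.16 with an adjusted p of 0.0411.

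**Figure D3:**
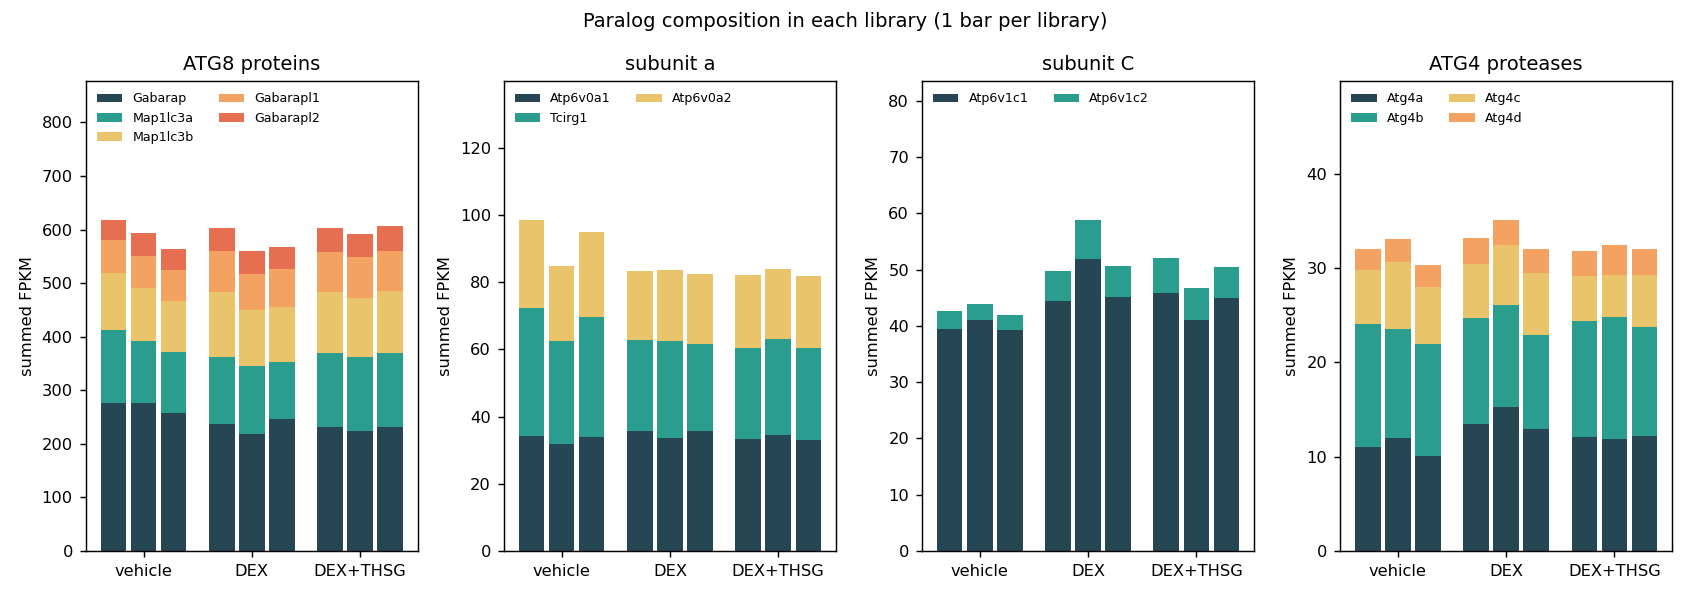
Summed FPKM (y axes, starting at 0) of 4 families of paralogs, 1 stacked bar per library, 3 libraries per group (x axes; DEX is dexamethasone). The ATG8 bars keep similar heights while the Gabarap part is smaller, at 45.7% with vehicle and 40.7% with dexamethasone, and the Gabarapl1 part larger. Subunit a includes Tcirg1, which is outside the 58 genes.

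Of 3 cargo receptors, 1 rose (33.3% passed, beside 33.6% of all listed genes). Bnip3, a receptor for removal of mitochondria, measured 29.6, 25.6 and 28.2 FPKM with vehicle, 39.3, 36.9 and 33.8 FPKM with dexamethasone and 36.7, 38.1 and 35.6 FPKM with dexamethasone plus THSG. Treated libraries lay above all vehicle libraries, and the difference was 0.40 (SE 0.068, adjusted p = 0.000794). Its close relative Bnip3l (NIX) read 31.1, 31.4 and 31.4 FPKM with vehicle and 29.8, 29.7 and 28.0 FPKM with dexamethasone. These groups did not overlap, but the difference of -0.10 did not pass (adjusted p = 0.155). Sqstm1, which encodes p62 and links ubiquitinated cargo to LC3, gave 259, 242 and 247 FPKM with vehicle, 235, 231 and 224 FPKM with dexamethasone and 250, 253 and 247 FPKM with dexamethasone plus THSG. The dexamethasone libraries were the lowest of the 9, with a difference from vehicle of -0.11 just short of the threshold (adjusted p = 0.0513). With genes averaging under 5 FPKM left out, the adjusted p for Sqstm1 was 0.0477. The difference shrank under each other scaling, to -0.07 by median ratio (adjusted p = 0.232), -0.09 with equal sums (adjusted p = 0.127) and -0.03 by quantiles (adjusted p = 0.58).

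The MiT transcription factors TFEB and TFE3 bind E-box-like letters in front of lysosomal and autophagy genes when nutrients are short. Tfe3 measured 15.2, 16.1 and 15.9 FPKM with vehicle, 14.5, 12.1 and 12 FPKM with dexamethasone and 14.7, 15.9 and 15.4 FPKM with dexamethasone plus THSG. Every dexamethasone library was below every other library, although its replicate 1 came close to the lowest of the THSG libraries. The fall from vehicle was -0.29 (SE 0.078, adjusted p = 0.0139). It missed the threshold without dexamethasone replicate 2 (-0.25, adjusted p = 0.0547) and without dexamethasone replicate 3 (-0.24, adjusted p = 0.0532). Tfeb read 8.12, 8.23 and 7.75 FPKM with vehicle, 7.53, 8.97 and 6.0 FPKM with dexamethasone and 8.32, 9.14 and 8.83 FPKM with dexamethasone plus THSG. Its dexamethasone libraries were widely spread, from below all others to above every vehicle library, and the difference from vehicle of -0.12 did not pass (95% confidence interval -0.38 to 0.15). Without dexamethasone replicate 3 the sign turned, to 0.03.

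Both genes for the abundant glycoproteins of the lysosomal membrane rose, as did 12.7% of all listed genes. Lamp1, by level the highest of the 58 genes, measured 466, 446 and 447 FPKM with vehicle, 505, 505 and 500 FPKM with dexamethasone and 520, 509 and 507 FPKM with dexamethasone plus THSG. The 3 groups formed separate ranges, in that order, and the rise from vehicle to dexamethasone was 0.15 (SE 0.040, adjusted p = 0.0119). Lamp2, which also serves fusion of autophagosomes with lysosomes, gave 127, 138 and 134 FPKM with vehicle, 152, 143 and 159 FPKM with dexamethasone and 156, 137 and 144 FPKM with dexamethasone plus THSG. Only the last group overlapped with vehicle. Its rise of 0.19 with dexamethasone (SE 0.058, adjusted p = 0.0269) did not pass in 6 of the 20 alternative settings. Among them were the fits without vehicle replicate 1 (0.15, adjusted p = 0.0936), without dexamethasone replicate 1 (0.19, adjusted p = 0.0643) and without dexamethasone replicate 3 (0.15, adjusted p = 0.1). Correcting for transcript length and GC content gave 0.09 (adjusted p = 0.0928).

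Promoter sequences were read for the letters that these factors recognise. RefSeq promoters on GRCm38.p6, from 250 bases before to 50 bases after each transcription start, were matched by symbol to 45 of the 58 genes and to 8254 listed genes. Those without an entry were Atg12, Atg16l1, Atp6v0a2, Atp6v0c-ps2, Atp6v0d2, Atp6v1b2, Atp6v1c1, Atp6v1g1, Atp6v1h, Becn1, Bnip3l, Map1lc3a and Pik3c3. Both strands were searched. TCACGTGA, the core of the element through which TFEB is known to act, occurred in 4 of the 45 (8.9%) and in 208 of the 8254 (2.52%). The shorter E-box CACGTG, which lies inside it, occurred in 10 (22.2%) and 1016 (12.3%). The 4 genes with the longer letters were Atg3, which fell, and the pump subunits Atp6v0d1, Atp6v0e and Atp6v1a, none of which passed. The other E-box genes were Bnip3 and Lamp1, which rose, and Atg14, Atg5, Atg7 and Atp6v0b, which did not pass. GTAAACA, 1 form of the forkhead (FOXO) site, was in none of the 45 promoters and in 252 of the 8254 (3.05%). At so low a share, its absence from 45 promoters carries little information, and other forms of the site were not searched. The glucocorticoid response element, searched in its palindromic form, was in none of the 45 and in 1 of the 8254 (0.0121%). The glucocorticoid element was so rare in these windows that its absence from 45 of them carries no information. Sites outside the windows were not searched for any of the letters. A match describes letters and not a bound site. The windows of 30 bases around the letters are shown for Atg3 and the 3 pump subunits, which share the longer letters. The Bnip3 window is shown beside these windows and holds only the shorter E-box. The motif is in capitals, 5′ to 3′ on the gene's strand. They lie at chr16:45158746-45158775 (plus strand, Atg3), chr8:105566050-105566079 (minus, Atp6v0d1), chr17:26676387-26676416 (plus, Atp6v0e), chr16:44139373-44139402 (minus, Atp6v1a) and chr7:138909597-138909626 (minus, Bnip3).
Atg3: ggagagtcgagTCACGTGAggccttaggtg
Atp6v0d1: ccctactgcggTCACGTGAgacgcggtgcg
Atp6v0e: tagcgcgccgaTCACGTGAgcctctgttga
Atp6v1a: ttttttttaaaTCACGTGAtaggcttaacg
Bnip3: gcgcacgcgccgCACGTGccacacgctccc

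The Lamp1 promoter was singled out after its letters were seen. Its last 75 bases before the start, at chr8:13159086-13159160 on the plus strand of GRCm38.p6, hold 4 E-boxes, which are in capitals. Only 3 of the 8254 listed genes with a promoter (0.0363%) had at least 4 in their window.
Lamp1: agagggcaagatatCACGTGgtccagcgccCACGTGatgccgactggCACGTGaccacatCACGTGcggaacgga

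Of the 8 genes for the pump's membrane part V0, 1 fell and none rose (12.5% passed, beside 33.6% of all listed genes). Atp6v0a2, an isoform of subunit a that anchors the pump and sets its location, measured 26.1, 22.2 and 25.3 FPKM with vehicle, 20.5, 21.2 and 20.6 FPKM with dexamethasone and 21.7, 20.9 and 21.3 FPKM with dexamethasone plus THSG. All treated libraries were below the lowest vehicle library, and the difference was -0.24 (SE 0.063, adjusted p = 0.0124). It was -0.19 without vehicle replicate 1 (adjusted p = 0.0519). Atp6v0a1, the isoform best known from neurons, stayed at 33.3 ± 1.3 and 35.0 ± 1.2 FPKM (log2 difference 0.07, -0.04 to 0.18). Tcirg1, the isoform of osteoclast pumps, which the symbol rule does not take in, fell from 38.2, 30.7 and 35.9 to 27.1, 28.9 and 26.0 FPKM (-0.35, adjusted p = 0.00394). The summed level of the 3 isoforms was 92.7 ± 7.2 FPKM with vehicle and 83.0 ± 0.68 FPKM with dexamethasone, and the share of Atp6v0a1 in it was 36.0% and 42.1%. The proton-carrying ring subunits did not pass: Atp6v0c read 199 ± 8.0 and 198 ± 7.7 FPKM, and Atp6v0b 172 ± 8.2 and 159 ± 7.7 FPKM. Subunits d and e, with Atp6v0d1, Atp6v0d2, Atp6v0e and Atp6v0e2, differed by 0.00 to 0.11.

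In the cytosolic part V1, 3 of 10 genes rose and 1 fell (40% passed, beside 33.6% of all listed genes). Atp6v1c2 (ENSMUSG00000020566) is the less expressed isoform of subunit C, which clamps V1 to V0 and leaves when the pump comes apart. It measured 3.10, 2.86 and 2.80 FPKM with vehicle, 5.39, 6.90 and 5.51 FPKM with dexamethasone and 6.08, 5.72 and 5.6 FPKM with dexamethasone plus THSG. The lowest treated library was well above the highest vehicle library, and the difference was 0.99 (SE 0.11, adjusted p = 3.02e-05). The widespread isoform Atp6v1c1 gave 39.4, 41.0 and 39.2 FPKM with vehicle, 44.5, 51.9 and 45.1 FPKM with dexamethasone and 45.9, 41.0 and 44.9 FPKM with dexamethasone plus THSG. Dexamethasone replicate 2 was its highest library, and the rise of 0.24 (SE 0.065, adjusted p = 0.0154) missed the threshold without it (0.17, adjusted p = 0.0582). Atp6v1c2 made up 6.83% of subunit C transcripts per length with vehicle, 11.1% with dexamethasone and 11.7% with dexamethasone plus THSG.

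Atp6v1e1, a stalk subunit, measured 124, 126 and 121 FPKM with vehicle, 142, 144 and 142 FPKM with dexamethasone and 153, 145 and 144 FPKM with dexamethasone plus THSG. The vehicle and treated ranges were clearly apart, with a rise of 0.21 (SE 0.039, adjusted p = 0.00147). Atp6v1f, part of the central rotor, read 80.1, 76.3 and 69.0 FPKM with vehicle, 68.6, 62.3 and 61.7 FPKM with dexamethasone and 69.0, 75.3 and 72.5 FPKM with dexamethasone plus THSG. The highest dexamethasone library nearly met the lowest vehicle library, and the fall of -0.23 (SE 0.063, adjusted p = 0.0168) did not pass without vehicle replicate 1, vehicle replicate 2, dexamethasone replicate 2 or dexamethasone replicate 3 (adjusted p = 0.0672, 0.0511, 0.0586 and 0.0614). The ATP-splitting subunits differed little, with Atp6v1a at 0.01 (-0.09 to 0.12) and Atp6v1b2 at 0.09 (-0.03 to 0.20). Atp6v1h, a regulatory subunit, differed by 0.00 (-0.16 to 0.17). Atp6v1d, Atp6v1g1 and Atp6v1g2 differed by 0.10, -0.13 and 0.41 without passing, the last with a wide 95% confidence interval of -0.03 to 0.84.

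Of the pump's 2 accessory proteins, Atp6ap2 fell and Atp6ap1 did not pass. Atp6ap2, also known as the (pro)renin receptor, measured 68.0, 65.9 and 68.7 FPKM with vehicle, 54.2, 53.4 and 57.6 FPKM with dexamethasone and 58.1, 53.3 and 52.8 FPKM with dexamethasone plus THSG. Both treated groups lay below all vehicle libraries, with a difference of -0.29 between dexamethasone and vehicle (SE 0.050, adjusted p = 0.000812). Atp6ap1 gave 116, 115 and 121 FPKM with vehicle and 108, 111 and 117 FPKM with dexamethasone, which overlapped (-0.07, adjusted p = 0.238). The row Atp6v0c-ps2, annotated as a processed pseudogene of Atp6v0c, could share reads with its parent gene and is uncertain. It read 116, 101 and 105 FPKM with vehicle and 103, 90.4 and 80.5 FPKM with dexamethasone. These ranges overlapped, and its fall of -0.23 (adjusted p = 0.0482) did not pass in 14 of the 20 alternative settings. A row listed as ATP6V0E1 carries the identifier of Vma21, a factor for pump assembly, and was kept outside the 58. It rose from 17.1, 16.9 and 16.2 to 19.5, 22.0 and 26.1 FPKM with dexamethasone (0.42, adjusted p = 0.00552).

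Other genes of these pathways were counted from fixed lists, beside the 33.6% of all listed genes that passed. Among 36 further autophagy genes, 11 rose and 5 fell (44.4% passed). They included Sesn1, a stress-induced inhibitor of mTORC1, which rose from 19.1 ± 1.0 to 49.6 ± 2.3 FPKM (1.37, adjusted p = 7.58e-09), and Depp1, a FOXO target linked to autophagy, which rose from 10.8 ± 1.4 to 19.1 ± 1.2 FPKM (0.81, adjusted p = 4.95e-05). Ykt6, a fusion SNARE of autophagosomes, fell from 56.0 ± 0.76 to 45.6 ± 1.5 FPKM (-0.30, adjusted p = 0.000268). Of 10 genes for V-ATPase assembly and related subunits, 2 rose and 2 fell (40.0%), with Dmxl1, a pump reassembly factor, at 7.23 ± 0.66 and 11.9 ± 0.70 FPKM (0.71, adjusted p = 4.63e-05). Of 43 lysosomal genes, 8 rose and 8 fell (37.2%). Those with the lowest p were the cholesterol exporter Npc1, at 16.0 ± 0.63 and 25.6 ± 0.85 FPKM (0.67, adjusted p = 1.61e-06), the protease Lgmn, at 76.7 ± 2.5 and 109 ± 2.8 FPKM (0.51, adjusted p = 3.73e-06), and Hexa, a subunit of the enzyme that degrades GM2 ganglioside, which rose by 0.32 (adjusted p = 0.000193). The 8 that fell, named here after their values were seen, were the proteases Ctsh and Ctsd, the glycosidases Man2b1, Fuca1 and Glb1, the sulfatase Arsb, the lipase Lipa and the membrane protein Cd63. Of these Ctsh had the lowest difference, from 2.95 ± 0.58 to 1.98 ± 0.18 FPKM (-0.54, adjusted p = 0.0247). Of 23 genes of nutrient sensing, 7 rose and 2 fell (39.1%). Among them, Prkaa2, the catalytic α2 subunit of AMPK, went from 3.98 ± 0.49 to 6.69 ± 0.52 FPKM (0.74, adjusted p = 0.000551), and Fnip2, a partner of folliculin, from 4.29 ± 0.55 to 7.17 ± 0.33 FPKM (0.73, adjusted p = 0.000154). Flcn, folliculin itself, rose from 22.1 ± 1.2 to 26.5 ± 1.7 FPKM (0.26, adjusted p = 0.00567). Against dexamethasone alone, the THSG libraries gave no call in any of these lists.

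When THSG was added to dexamethasone, none of the 58 genes passed, as was so for all listed genes (0% called in limma). At an unadjusted p under 0.05 there were 8 of the 58 (13.8%) and 777 of all listed genes (7.25%). Of these 8, 6 were higher and 2 lower than with dexamethasone alone, and of the 777, 541 were higher and 236 lower. The median log2 difference was 0.03, against 0.02 for all listed genes, and the 58 differences ran from -0.36 to 0.25 with a median half-width of the 95% confidence interval of 0.15. Libraries of these groups did not overlap for 11 of the 58 (19.0%) and for 13.3% of all listed genes. The lowest adjusted p was that of Tfe3, at 0.563, with the libraries given above, a difference of 0.25 (0.08 to 0.42) and an unadjusted p of 0.00727. Its mean was 15.7 ± 0.45 FPKM with vehicle, 12.9 ± 1.4 FPKM with dexamethasone and 15.3 ± 0.62 FPKM with dexamethasone plus THSG.

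Atg4c gave the lowest difference. It read 5.69, 7.09 and 6.08 FPKM with vehicle, 5.83, 6.39 and 6.55 FPKM with dexamethasone and 4.79, 4.37 and 5.47 FPKM with dexamethasone plus THSG. The THSG libraries were below all others, by -0.36 relative to dexamethasone (-0.60 to -0.11, unadjusted p = 0.00807, adjusted p = 0.572). For Atg4a the difference was -0.20 (unadjusted p = 0.0297) and for Atg4b 0.20 (unadjusted p = 0.0223). Sqstm1 was higher by 0.12 (0.03 to 0.21, unadjusted p = 0.0141, adjusted p = 0.589), with every THSG library above every dexamethasone library. Map1lc3a measured 137, 139 and 139 FPKM with dexamethasone plus THSG, a narrow group above the 3 dexamethasone libraries, with a difference of 0.22 (unadjusted p = 0.0172, adjusted p = 0.596). With the length and GC correction that difference was 0.08 (unadjusted p = 0.0853). The pump subunits Atp6v1f and Atp6v0b were higher by 0.17 and 0.13 (unadjusted p = 0.0201 and 0.0235). Dexamethasone replicate 3, which stood apart, enters each of these values. Without it the differences were 0.21 for Tfe3 (unadjusted p = 0.032), -0.32 for Atg4c (unadjusted p = 0.0286) and -0.25 for Atg4a (unadjusted p = 0.0155). The other 5 kept their sign and were then past 0.05. Differences and unadjusted p were 0.14 and 0.0854 for Map1lc3a, 0.15 and 0.0839 for Atg4b, and 0.1 and 0.0506 for Sqstm1. For Atp6v1f they were 0.14 and 0.0714, and for Atp6v0b 0.1 and 0.0938. That fit also rests on fewer libraries.

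The 4 genes with the largest rises under dexamethasone differed little between the treated groups. Atg12 differed by -0.07 (95% confidence interval -0.20 to 0.07), Atp6v1c2 by -0.02 (-0.27 to 0.22), Bnip3 by 0.01 (-0.14 to 0.15) and Atg13 by 0.01 (-0.11 to 0.13). All 4 had passed against vehicle in both treated groups. The next in size were further apart: Atg4a, given above, at -0.20 and Atg3 at 0.16 (0.00 to 0.32, unadjusted p = 0.054, adjusted p = 0.687). For neither gene did the treated groups overlap. The same dexamethasone libraries enter this comparison and the one with vehicle, with opposite sign. A difference against the direction seen with dexamethasone, as also for Tfe3 and Atp6v1f, is therefore not independent evidence of a reversal. Atp6ap2 differed by -0.01 (-0.12 to 0.10) and Lamp1 by 0.03 (-0.06 to 0.11).

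**Figure D4:**
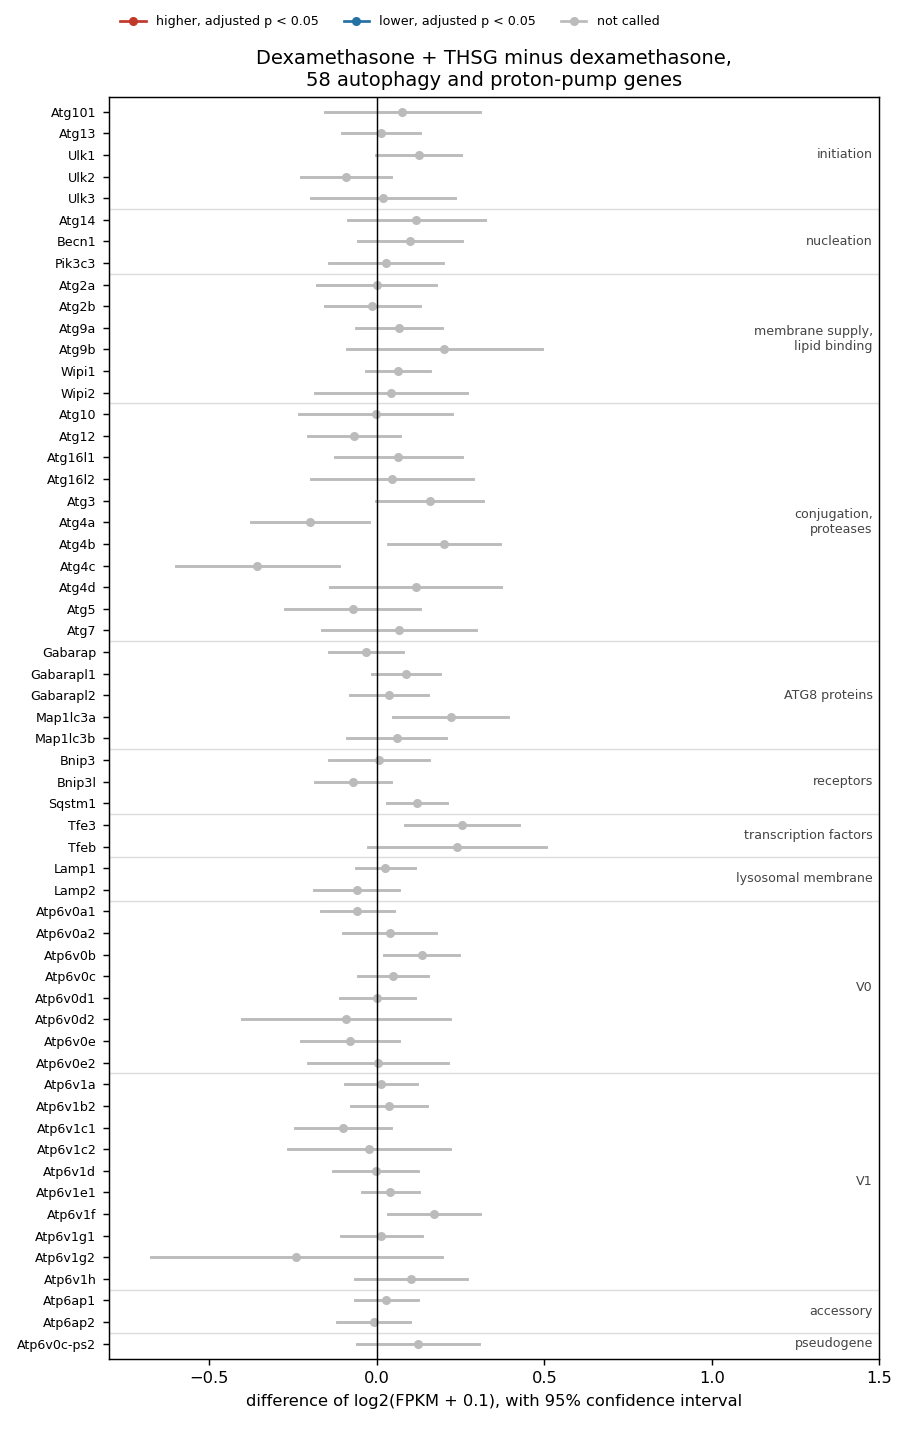
Difference of log2(FPKM + 0.1) between dexamethasone plus THSG and dexamethasone (x axis; points with 95% confidence intervals, n = 3 libraries per group) for each of the 58 genes (y axis), grouped by role. No gene passed the adjusted threshold, so all are grey. The differences lie between -0.36 for Atg4c and 0.25 for Tfe3.

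Against the same vehicle libraries, dexamethasone plus THSG gave 7 genes higher and 5 lower, that is 12.1% and 8.62% of the 58. Over all listed genes 12.1% were higher and 17% lower. In either direction the shares were 20.7% of the 58 and 29.1% of all listed genes. Higher were Atg12 (1.14 on the log2 scale; 1.20 with dexamethasone alone), Atp6v1c2 (0.97; 0.99), Bnip3 (0.40; 0.40), Atg13 (0.38; 0.37), Gabarapl1 (0.34; 0.25), Atp6v1e1 (0.25; 0.21) and Lamp1 (0.18; 0.15). Lower were Atg4c (-0.36; 0.00), Atp6ap2 (-0.30; -0.29), Gabarap (-0.24; -0.20), Atp6v0a2 (-0.20; -0.24) and Bnip3l (-0.17; -0.10). As the vehicle libraries are shared, the likeness of these pairs of values is not independent evidence. Atg4c (adjusted p = 0.0306) and Bnip3l (adjusted p = 0.0253) passed here and did not with dexamethasone alone, but their direct comparison between the treated groups did not pass (adjusted p = 0.572 and 0.791). The Atg4c call ended in 5 of the 20 alternative settings, for example without vehicle replicate 2 (-0.27, adjusted p = 0.125) or THSG replicate 2 (-0.29, adjusted p = 0.117). That of Bnip3l ended in 6, among them without THSG replicate 3 (-0.14, adjusted p = 0.105), and that of Atp6v0a2 in 8, among them without vehicle replicate 1 (-0.16, adjusted p = 0.117). Over all alternatives of this comparison 19 calls ended and 30 were gained. Map1lc3b, at 114, 109 and 117 FPKM with dexamethasone plus THSG, missed the threshold in the main fit (0.18, adjusted p = 0.0721). It passed under median-ratio scaling (0.21, adjusted p = 0.0303), as did Map1lc3a (0.23, adjusted p = 0.0413) and Gabarapl2 (0.18, adjusted p = 0.0251). The number lower fell to 3 without vehicle replicate 1, 2 or 3 or without THSG replicate 3, to 2 without THSG replicate 2, and to 3 under median-ratio scaling, where 11 were higher. Genes that had passed with dexamethasone and not here were Atg4a (0.13, adjusted p = 0.263), Atp6v1c1 (0.14, 0.146), Lamp2 (0.13, 0.13), Atg3 (-0.18, 0.0959), Tfe3 (-0.03, 0.78), Atp6v1f (-0.06, 0.565) and Atp6v0c-ps2 (-0.11, 0.359). For none of these 7 did the treated groups differ from each other at the adjusted threshold.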

How the data were processed

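RNA from 9 libraries was extracted and made into stranded mRNA libraries, per the labels' protocols. STAR 2.7.10a and featureCounts are listed in the submitters' processing notes, with GRCm39 as build and no settings. The deposited table holds fractional values above 1 with up to 6 significant digits. They were taken as FPKM made by the authors, a unit inferred from the values. Groups follow the sample titles, since the cell line field counts upward over the samples. The fit used limma 3.58.1 (R 4.3.3) on log2(FPKM + 0.1), with 1 mean per group over all 9 libraries, an intensity trend, and Benjamini-Hochberg adjustment over 10716 genes, and was tested on simulated data first. The genes and lists were chosen with earlier results of these data known. Genes chosen for closer description were the 3 with the lowest p per role and the 6 largest rises and 6 largest falls. Added to them were the 5 lowest p for THSG and a fixed list of central genes. Some of these, such as Atp6v0e, are given only by a difference or a range, and all others by value or count. Alternatives were pseudocounts of 0 and 1, median-ratio, equal-sum and quantile scaling, a mean of at least 5 FPKM, a replicate block, a fit without the trend, a fit of only the groups compared, and leaving out each library. A correction for GC content and transcript length was added after seeing the data. Identifiers of 10670 genes matched GENCODE M21, including all 58.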

Additional observations from a re-analysis of the deposited data

How the results depend on the processing

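Of the 17 calls between dexamethasone and vehicle, 10 held in every alternative run: Atg12, Atp6v1c2, Bnip3, Atg13, Atg4a, Gabarapl1, Atp6v1e1, Lamp1, Atg3 and Atp6ap2. Atp6v1c2 was left out of the fit of genes averaging at least 5 FPKM. No alternative gave a call between the treated groups. Leaving out 1 library at a time gave 9 to 10 higher and 4 to 8 lower with dexamethasone, 7 to 10 higher and 2 to 6 lower with dexamethasone plus THSG against vehicle, 0 between the treated groups, and a median log2 difference of the 58 genes between -0.0335 and 0.0232. For dexamethasone plus THSG against vehicle, 11 were higher under median-ratio scaling and under quantile normalization, and 3 lower under median-ratio scaling. In that comparison the median log2 difference of all listed genes was -0.0384 in the main fit. It was -0.00433 under median-ratio scaling and -0.00304 under quantile normalization. The cause of the changed numbers was not tested. The replicate numbers did not pair the libraries (same-number correlations from -0.0862 to 0.107), and with the replicate block 10 were higher and 7 lower with dexamethasone. The block with the GC and length correction gave 9 and 9; that correction with and without the block is called both GC corrections here. For dexamethasone against vehicle, the 58 genes gave 1156 values over all alternatives, in which a call ended 30 times, a call was gained 13 times and the sign changed 79 times. The sign changes fell on 19 genes, none of which had passed. For the 37 genes chosen for closer description there were 33, in Ulk1, Ulk3, Atg2a, Atg4c, Map1lc3a, Tfeb and Atp6v1h. Leaving out 1 library at a time gave ranges of -0.05 to 0.02 for Ulk1, -0.14 to 0.03 for Ulk3, -0.25 to 0.03 for Tfeb, -0.07 to 0.09 for Atg4c, -0.08 to 0.06 for Map1lc3a and -0.04 to 0.07 for Atp6v1h. Ulk1 gave 0.04, 0.01 and 0.02 under median-ratio, equal-sum and quantile scaling and 0.04 after both GC corrections. Atg2a was at 0.01 under quantile normalization and both GC corrections, and Tfeb at 0.06 after both. Atg4c gave 0.04, 0.02 and 0.07 under median-ratio, equal-sum and quantile scaling. Map1lc3a gave 0.02 and 0.01 under median-ratio and quantile scaling and 0.16 after both GC corrections, and Atp6v1h -0.13 after both. Depth is unknown, so counting error could not be set beside these differences.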
